A study of Mus musculus with 4 samples.

Results

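A set of 42 genes that mark intestinal stem cells or act in the WNT and Notch pathways was followed in the colon epithelium of mice treated with dextran sulfate sodium (DSS), which damages the mucosa and causes colitis. The genes were chosen by name, and all 42 were found among the 18872 genes listed in the deposited tables: 11 stem cell markers, 24 WNT genes and 7 Notch genes. Primary epithelial cells of the colon were isolated after 3 days of 2% DSS, and their RNA was sequenced, from wild-type mice (2 libraries) and from mice of the genotype EZH2-IEC-/- (2 libraries, called knockout). Ezh2 is the enzyme of Polycomb complex PRC2 that methylates histone H3, and the study title and genotype place its loss in the intestinal epithelium. All 4 libraries come from DSS-treated animals, and libraries without DSS were not analysed here. The labels do not name the Cre driver, the age of the mice or whether each library stands for its own animal, so the p-values rest on the spread between libraries alone, and that spread may be technical. The question is how loss of epithelial Ezh2 alters these genes during experimental colitis.

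WNT signalling maintains the stem cells at the base of each colonic crypt. WNT ligands bind Frizzled and LRP receptors, which frees β-catenin from a destruction complex containing APC and AXIN and lets it act with TCF and LEF factors on target genes. Several targets feed back on the pathway: Axin2 and Nkd1 act inside the cell, and Rnf43 and Znrf3 remove Frizzled receptors from the surface. Notch receptors, activated by Delta and Jagged ligands on neighbouring cells, act through Rbpj to induce Hes1, which favours the absorptive over the secretory fate.

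Most of the genes that could be tested were lower in the knockout. Of 38 with enough counts, 22 fell, 2 rose and 14 did not pass (edgeR's quasi-likelihood test, adjusted p under 0.05), with a median log2 fold change of -0.48. Among all 13608 genes tested, 20.8% were called lower and 23.0% higher (43.7% in either direction), with a median of -0.002. By role, 16 of 22 WNT genes (72.7%) and 4 of 7 Notch genes (57.1%) fell, against 2 of 9 stem cell markers (22.2%, near the 20.8% of all genes). Whether these shares differ between roles was not tested. The stem cell markers Lgr5 and Ascl2, which did not pass, rest on only about 13 to 30 counts a library. Olfm4, Msi1, Notum and Sp5 had too few counts for the test. Of the 22 genes that fell, 14 were called under every alternative that gave a value. Wnt8b passed the filter on low counts through the wild-type libraries alone; without it, 21 of 37 genes and 15 of 21 WNT genes fell, and 13 were called under every alternative. Scaling by library totals in place of TMM factors moved the median of all genes to -0.10, the calls over all genes to 3465 lower and 2555 higher, and those of these genes to 23 lower and 1 higher.

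**Figure D1:**
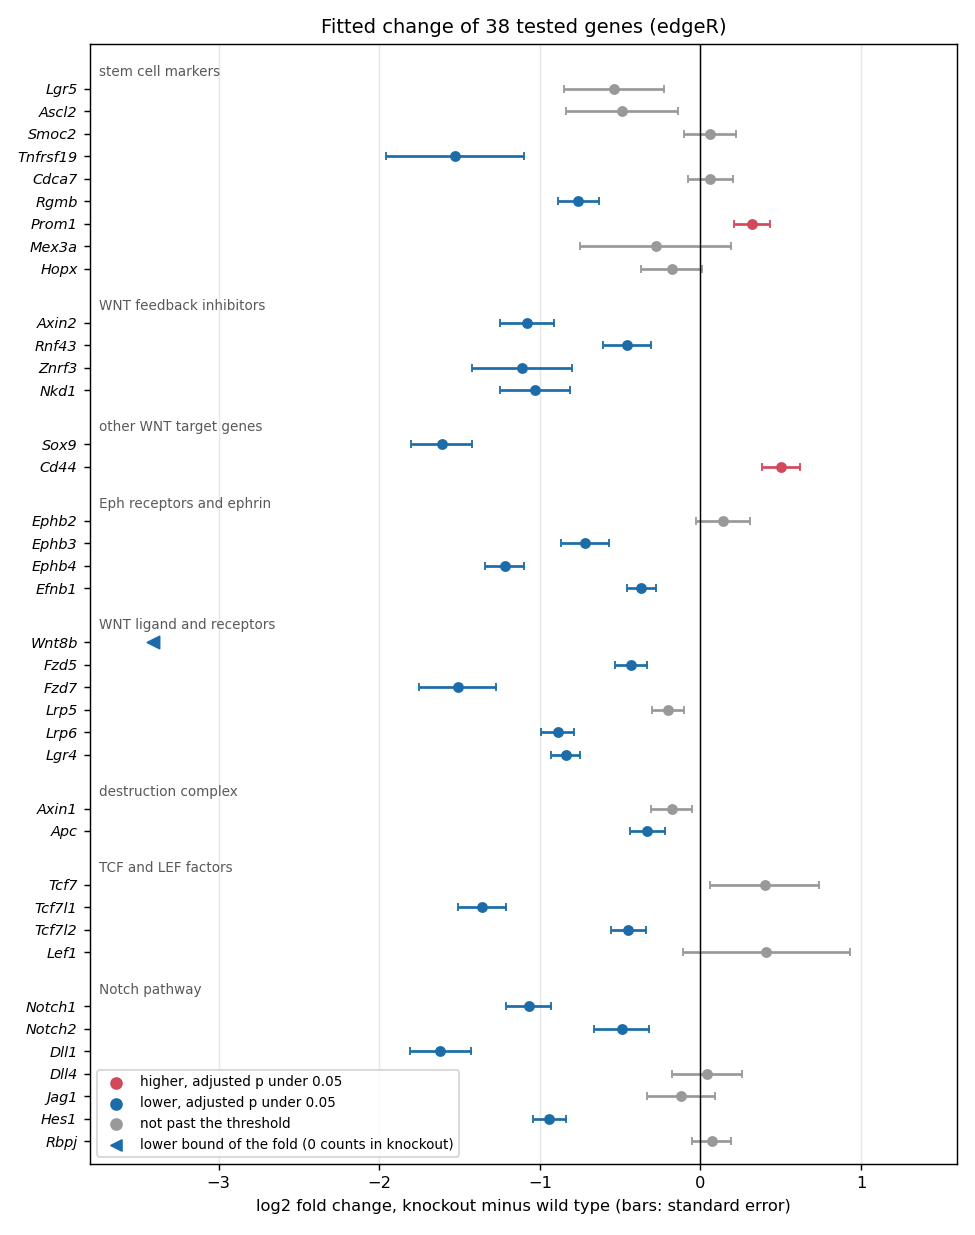
Log2 fold change (horizontal axis, knockout minus wild type) with its standard error for the 38 tested genes, grouped by role, with blue for genes that fell, red for genes that rose and grey for the others. Most blue points lie among the WNT and Notch genes, Dll1 at -1.62 and Sox9 at -1.61, and the triangle for Wnt8b marks the bound of an at least 10.6-fold fall.

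Promoter sequences of 4 genes that fell are shown. The first 3 are given because the study removes a chromatin regulator and PRC2 is known to occupy promoters rich in CpG dinucleotides. The last is given for its TCF/LEF letters. Each is the 250 bases before a RefSeq transcription start (build GRCm38.p6, 5′ to 3′ on the gene's strand). In the first 3, capitals mark CpG dinucleotides. Axin2 (chr11:108920099-108920348, plus strand) has 24, Notch1 (chr2:26503823-26504072, minus strand) has 16, and Wnt8b (chr19:44493222-44493471, plus strand) has 5. The ratio of observed to expected CpG in these windows was 0.86, 0.59 and 0.34. The median over all genes in the promoter table, each at its richest start, was 0.40, so the Wnt8b window is not rich in CpG. In Tnfrsf19 (chr14:61037988-61038237, minus strand, the downstream of its starts) capitals mark the TCF/LEF letters CTTTGAT, found on the other strand. This start was chosen because its window holds these letters. Exons of another gene, Gm41168, cover 120 bases of the window.
Axin2: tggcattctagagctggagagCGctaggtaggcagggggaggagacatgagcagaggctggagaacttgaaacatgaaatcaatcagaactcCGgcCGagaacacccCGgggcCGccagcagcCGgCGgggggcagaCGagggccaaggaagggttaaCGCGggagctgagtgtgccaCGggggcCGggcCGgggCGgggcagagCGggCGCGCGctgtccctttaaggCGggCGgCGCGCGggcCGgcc
Notch1: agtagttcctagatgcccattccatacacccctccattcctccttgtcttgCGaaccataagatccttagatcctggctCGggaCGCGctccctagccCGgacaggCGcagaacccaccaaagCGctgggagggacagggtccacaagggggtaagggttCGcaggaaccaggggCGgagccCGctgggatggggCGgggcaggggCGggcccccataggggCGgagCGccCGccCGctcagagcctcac
Wnt8b: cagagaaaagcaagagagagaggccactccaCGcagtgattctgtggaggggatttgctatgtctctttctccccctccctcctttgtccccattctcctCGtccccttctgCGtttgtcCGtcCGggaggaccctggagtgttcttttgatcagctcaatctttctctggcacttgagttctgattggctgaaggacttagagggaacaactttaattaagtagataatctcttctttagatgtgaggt
Tnfrsf19: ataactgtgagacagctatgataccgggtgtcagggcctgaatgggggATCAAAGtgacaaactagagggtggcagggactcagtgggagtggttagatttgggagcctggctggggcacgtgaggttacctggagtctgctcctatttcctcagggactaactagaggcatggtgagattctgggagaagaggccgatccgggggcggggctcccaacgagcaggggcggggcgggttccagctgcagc

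Of the 42 genes, 31 were in the promoter table. The ratio of observed to expected CpG, taken at the richest start of each gene, was at least 0.6 for 17 of these 31 genes (54.8%) and for 36.5% of all 27025 genes in the table. It was at least 0.6 for 9 of 17 genes that fell and for 8 of 12 tested genes that did not. The TCF/LEF letters CTTTGAT or CTTTGAA, on either strand, were in the windows of 2 genes, Tnfrsf19 and Sp5, or 6.45% against 8.63% of all genes. The RBPJ letters TGGGAA were in 8 (25.8%, against 24.1% of all genes), of which Efnb1 and Tcf7l1 fell. These are matches of letters in a short window and not binding sites. Genes with more starts had more chances of a high ratio or a match, and the 27025 genes are not limited to those tested here. No binding or chromatin data were analysed here.

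The libraries were of similar depth, with 5037367 to 5446998 estimated counts each. Ezh2 had 105 and 102 counts in the wild-type libraries, against 86 and 83 in the knockout (log2 fold change -0.27 ± 0.17, adjusted p = 0.217). The labels do not say which exons were removed, so this count over the whole gene checks nothing. All 10 epithelial markers were detected, led by the keratins Krt8 and Krt19, and their summed FPKM was 9304 and 9629 in wild type against 10581 and 10975 in knockout (7 higher, 3 lower). FPKM, the deposited level scaled to transcript length and sequencing depth, is used below in the order wild-type replicates 1 and 2, then knockout replicates 1 and 2.

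Markers of other cells were present in both groups, and none was at 0 in both libraries of a group. Summed FPKM of 10 fibroblast and smooth muscle markers was 2335 and 2515 in wild type against 1051 and 1347 in knockout, with 9 of 10 lower. For 10 T and NK cell markers the sums were 26.2 and 24.4 against 72.7 and 80.7, with 9 higher. Among the 9, Gzmb and Nkg7 passed the filter on low counts through the knockout libraries alone, so their calls add no support. For 7 macrophage markers the sums were 126 and 129 against 211 and 216, with 5 higher. Endothelial markers summed to 40.5 and 36.4 against 27.2 and 29.0. Of these 10, 3 were lower and 7 were not called, a share near the 20.8% of all genes called lower. Among differentiated cells, 7 of 8 absorptive colonocyte markers fell. Goblet cell markers split into 2 higher and 2 lower of 6, or 33.3% each way against 23.0% and 20.8% of all genes. Proliferation markers rose in 10 of 11 cases, from sums of 210 and 201 to 347 and 318 FPKM. In bulk RNA, fewer cells of a type and less RNA per cell cannot be told apart, and the part of these cells in the results below was not tested.

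The stem cell markers did not move as one. Lgr5, the R-spondin receptor that marks crypt base columnar stem cells, was low, at 1.26 and 1.17 FPKM in wild type against 0.71 and 0.83 in knockout. Both knockout libraries lay below both wild-type ones, but the log2 fold change of -0.54 ± 0.31 did not pass (adjusted p = 0.192, on about 18 to 30 counts a library). Ascl2, a transcription factor that sets stem cell fate under WNT control, was at 2.60 and 2.62 FPKM against 1.5 and 1.94, also without overlap and also not past the threshold (-0.49 ± 0.35, adjusted p = 0.291). Ascl2 rests on 13 to 22 counts a library.

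Tnfrsf19 and Rgmb were the stem cell markers that fell. Tnfrsf19 encodes the receptor TROY, a WNT target in crypt base cells, and was at 1.37 and 1.5 FPKM in wild type against 0.27 and 0.68 in knockout (log2 fold change -1.53 ± 0.43, adjusted p = 0.0179). It rests on 6 and 15 knockout counts: the call was lost without wild-type replicate 2 (-1.46, adjusted p = 0.0684) and without knockout replicate 1 (-1.03, adjusted p = 0.0982), and without knockout replicate 2 the value was -2.31. DESeq2 and both limma fits lost it too (adjusted p = 0.0541 to 0.103). Rgmb, a co-receptor for bone morphogenetic proteins, fell from 17.5 and 15.1 to 8.82 and 9.08 FPKM (-0.76 ± 0.13, adjusted p = 0.00188), with no overlap.

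Prom1, which encodes the membrane glycoprotein CD133, was the most abundant stem cell marker and the 1 that rose. Its levels were 40.4 and 39.5 FPKM in wild type against 49.7 and 41.8 in knockout, so the lower knockout library was close to wild type. The log2 fold change of 0.32 ± 0.11 (adjusted p = 0.0376) was lost without knockout replicate 1 (0.18, adjusted p = 0.237), without wild-type replicate 1 (0.32, adjusted p = 0.118), without wild-type replicate 2 (0.30, adjusted p = 0.119) and with library totals (0.21, adjusted p = 0.129). DESeq2 (adjusted p = 0.0577), the fit with no filter on low counts (0.0517) and limma (0.227 and 0.230) lost it as well.

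The other stem cell markers did not pass. Smoc2, a matricellular protein of the Lgr5 signature, was at 10.9 and 8.92 FPKM against 10.5 and 8.82, and Cdca7, a nuclear protein of the same signature, at 18.4 and 15.7 against 17.8 and 15.3. In both genes the groups overlapped, and the log2 values of 0.06 ± 0.16 and 0.06 ± 0.14 turned to -0.04 and -0.05 with library totals. Hopx, a homeodomain protein known from slow-cycling cells, was at 26.4 and 31.3 against 28.3 and 19.5 FPKM. Mex3a, an RNA-binding protein of a slow-cycling Lgr5 subset, was at 0.62 FPKM in both wild-type libraries, against 0.25 and 0.69. Olfm4, a stem cell marker of the small intestine, had 0 counts in both wild-type libraries and 5 and 1 in knockout, and Msi1, an RNA-binding protein that represses the Notch inhibitor Numb, had 1 or 2 counts in each library. Neither level can be compared at this depth.

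**Figure D2:**
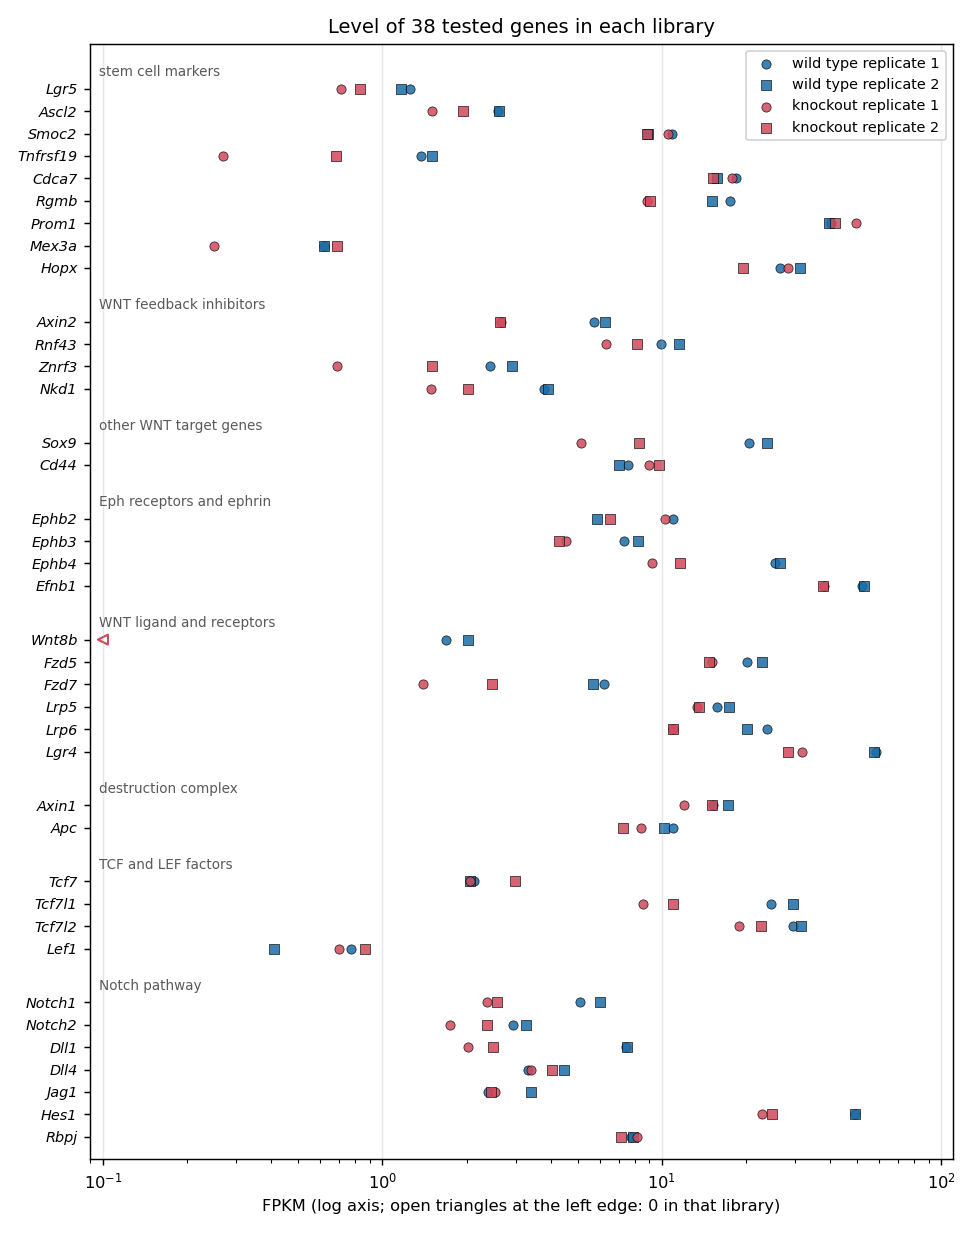
FPKM on a log axis for the 38 tested genes in each library, with circles for replicate 1 and squares for replicate 2, blue for wild type and red for knockout. Knockout points lie to the left of wild type for Axin2, Sox9, Fzd7, Tcf7l1, Dll1 and Hes1, while those of Smoc2, Cdca7, Dll4 and Rbpj are mixed, and Wnt8b is at 0 in both knockout libraries.

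All 4 measured WNT feedback inhibitors fell, with a median log2 fold change of -1.05. Axin2, a scaffold of the destruction complex and a standard readout of the pathway, was at 5.74 and 6.28 FPKM in wild type against 2.66 and 2.63 in knockout. The groups lay far apart and the log2 fold change was -1.08 ± 0.17 (adjusted p = 0.000867). Nkd1, which binds Dishevelled, fell from 3.78 and 3.90 to 1.49 and 2.02 FPKM (-1.03 ± 0.22, adjusted p = 0.00537).

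The 2 ubiquitin ligases of Frizzled receptors also fell, with a wider spread between knockout libraries. Znrf3 was at 2.42 and 2.91 FPKM in wild type against 0.69 and 1.5 in knockout (-1.11 ± 0.31, adjusted p = 0.0173). The call was lost when wild-type replicate 2 was left out (-0.95, adjusted p = 0.0620) and with limma on log2(FPKM + 0.1) (adjusted p = 0.0563), and without knockout replicate 1 or 2 its value was -0.69 or -1.73. Rnf43 was at 9.89 and 11.5 FPKM against 6.30 and 8.13 (-0.46 ± 0.15, adjusted p = 0.0360). That call was lost without wild-type replicate 2 (-0.35, adjusted p = 0.168), without knockout replicate 1 (-0.30, adjusted p = 0.155), with no filter (adjusted p = 0.0600), with DESeq2 (0.147) and with limma (0.0511 and 0.0533). Notum, a secreted enzyme that inactivates WNT ligands, had at most 1 count in any library.

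Other WNT targets went in opposite directions. Sox9, a transcription factor of crypt progenitors, had a fall close to that of Dll1, the steepest of these genes with counts in both groups, from 20.5 and 23.7 to 5.13 and 8.31 FPKM (-1.61 ± 0.19, adjusted p = 0.000190). Both knockout libraries lay well below both wild-type ones. Cd44, an adhesion receptor for hyaluronan, rose from 7.59 and 7.0 to 9.02 and 9.76 FPKM (0.50 ± 0.12, adjusted p = 0.00987). The Cd44 call was lost without wild-type replicate 2 (0.44, adjusted p = 0.0611), with DESeq2 (adjusted p = 0.0800) and with limma (0.0776 and 0.0737). Cd44 is also made by leukocytes, whose markers rose as given above, and their part was not tested. Sp5, a transcription factor induced directly by WNT, had 1 to 3 counts in each library.

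The EphB receptors and ephrin-B1 position cells along the crypt, and 3 of these 4 genes fell. Ephb4 fell from 25.4 and 26.4 to 9.22 and 11.6 FPKM (-1.22 ± 0.12, adjusted p = 6.68e-05), and Ephb3 from 7.34 and 8.25 to 4.55 and 4.30 (-0.72 ± 0.15, adjusted p = 0.00371). Efnb1, the ligand and the more abundant gene, fell less, from 51.9 and 53.0 to 38.1 and 37.7 FPKM (-0.37 ± 0.09, adjusted p = 0.00937), a call lost without wild-type replicate 2 (-0.33, adjusted p = 0.0663). Ephb2 did not pass (0.14 ± 0.17, adjusted p = 0.525). Its deposited transcript length was 4850 bases in the replicate 1 files and about 10927 in the replicate 2 files, so its FPKM can be compared only within a replicate number, at 11.0 and 10.3 for replicate 1 and 5.86 and 6.50 for replicate 2.

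Surface components of the WNT pathway were lower, with 5 of 6 falling past the threshold, or 4 of 5 without Wnt8b. Wnt8b, a WNT ligand best known from the developing forebrain, had 29 and 36 counts in wild type (1.69 and 2.02 FPKM) and 0 in both knockout libraries. Against a floor of 3 counts per library it was at least 10.6-fold lower (adjusted p = 0.000204). It could be tested only because it is high in wild type, so its call adds no support. Fzd7, a Frizzled receptor known from stem cells, fell from 6.21 and 5.66 to 1.4 and 2.47 FPKM (-1.51 ± 0.24, adjusted p = 0.00102).

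Lgr4, the R-spondin receptor expressed more widely than Lgr5, was the most abundant of all 42 genes in wild type. It fell from 58.2 and 57.5 to 31.8 and 28.2 FPKM (-0.84 ± 0.09, adjusted p = 0.000122). The co-receptor Lrp6 fell from 23.8 and 20.1 to 11.0 in both knockout libraries (-0.89 ± 0.10, adjusted p = 0.000200), while Lrp5 was at 15.8 and 17.4 against 13.4 and 13.6 FPKM and did not pass (-0.20 ± 0.10, adjusted p = 0.129, or -0.30 and adjusted p = 0.0324 with library totals). Fzd5, a Frizzled receptor of crypt cells, fell from 20.2 and 22.9 to 15.1 and 14.8 FPKM (-0.43 ± 0.10, adjusted p = 0.00698). The Fzd5 call was lost when wild-type replicate 2 was left out (-0.34, adjusted p = 0.0624).

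Of the constitutive destruction complex scaffolds, Apc passed and Axin1 did not. Apc, the tumour suppressor scaffold, was at 11.0 and 10.2 FPKM against 8.42 and 7.27 (-0.33 ± 0.11, adjusted p = 0.0326), and the call was lost without wild-type replicate 1 (-0.28, adjusted p = 0.137) and without knockout replicate 2 (-0.22, adjusted p = 0.165). It was also lost with DESeq2, no filter and limma (adjusted p = 0.0552 to 0.0959). Axin1, the constitutive counterpart of Axin2, was at 15.2 and 17.2 against 12.0 and 15.1 FPKM and did not pass (-0.18 ± 0.13, adjusted p = 0.300).

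Among the transcription factors that carry β-catenin, the 2 abundant ones fell. Tcf7l1, best known as a repressor of WNT targets, fell from 24.5 and 29.4 to 8.55 and 11.0 FPKM (-1.36 ± 0.15, adjusted p = 0.000115). Tcf7l2, the main TCF of intestinal epithelium, fell from 29.5 and 31.6 to 18.9 and 22.6 FPKM (-0.45 ± 0.11, adjusted p = 0.0104), and just missed the threshold without wild-type replicate 2 (-0.40, adjusted p = 0.0549). Their sum with Tcf7 and Lef1 went from 56.9 and 63.4 to 30.2 and 37.4 FPKM. The Tcf7l1 share of that sum was 43.0% and 46.4% in wild type against 28.3% and 29.4% in knockout, and the Tcf7l2 share 51.9% and 49.7% against 62.5% and 60.4%.

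Tcf7 and Lef1, both also expressed by T cells, were low. Tcf7 was at 2.13 and 2.05 FPKM in wild type against 2.06 and 2.98 in knockout (0.40 ± 0.34, adjusted p = 0.369), and the deposited files count it over different transcripts in replicates 1 and 2. Lef1 was at 0.77 and 0.41 against 0.70 and 0.87 FPKM (0.41 ± 0.52, adjusted p = 0.555). In both genes the groups overlapped.

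**Figure D3:**
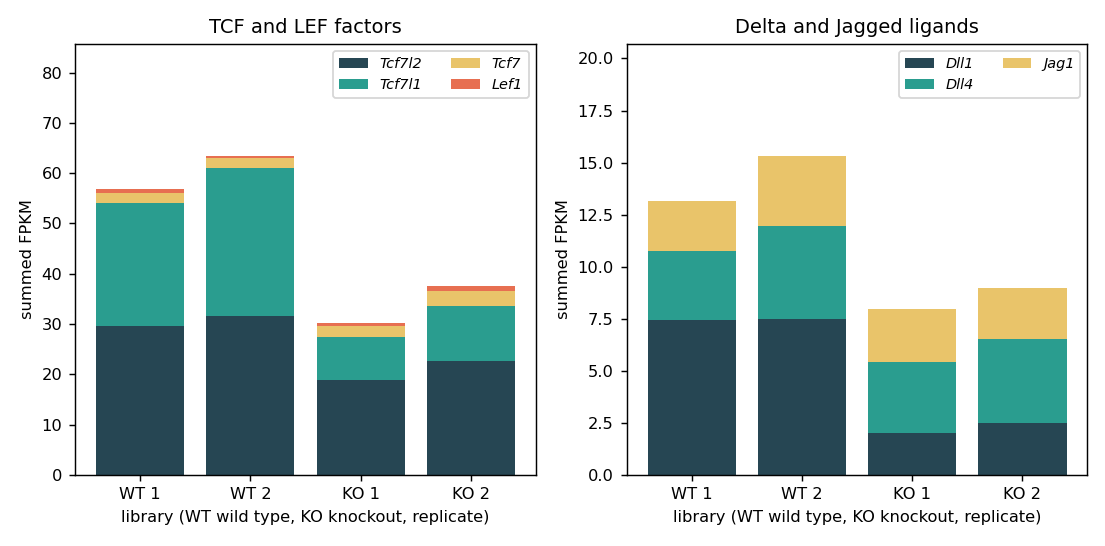
Stacked bars of FPKM in each library for the TCF and LEF factors (left) and for the Delta and Jagged ligands (right). The Tcf7l1 and Dll1 segments are shorter in both knockout libraries, while the Dll4 segment is between 3.31 and 4.45 FPKM in all 4.

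Among the Notch genes of the set, the ligand Dll1, the receptors Notch1 and Notch2 and the target Hes1 fell. Outside the set, the receptor Notch3 fell and Notch4 rose, as given below. Dll1, a Delta ligand of secretory progenitors, fell from 7.44 and 7.48 to 2.03 and 2.48 FPKM (-1.62 ± 0.19, adjusted p = 0.000181). The other ligands did not pass: Dll4, also a ligand of crypt secretory cells and of endothelium, was at 3.31 and 4.45 against 3.41 and 4.06 FPKM (0.04 ± 0.22, adjusted p = 0.888). Jag1 was at 2.39 and 3.40 against 2.53 and 2.44 FPKM (-0.12 ± 0.21, adjusted p = 0.681). Dll1 made up 56.6% and 48.8% of the summed FPKM of these ligands in wild type and 25.5% and 27.6% in knockout.

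Of the receptors, Notch1 fell from 5.09 and 6.01 to 2.36 and 2.57 FPKM (-1.07 ± 0.14, adjusted p = 0.000306). Notch2 was at 2.94 and 3.26 against 1.75 and 2.36 FPKM (-0.49 ± 0.17, adjusted p = 0.0414), without overlap. The Notch2 call was lost without wild-type replicate 1 (-0.57, adjusted p = 0.0508), without wild-type replicate 2 (-0.42, adjusted p = 0.163) and without knockout replicate 1 (-0.30, adjusted p = 0.186), and with DESeq2, no filter and limma (adjusted p = 0.0693 to 0.198). Hes1, the transcriptional repressor induced by Notch, was among the most abundant of the 42 genes and fell from 49.0 in both wild-type libraries to 22.8 and 24.7 FPKM (-0.94 ± 0.10, adjusted p = 0.000122). Rbpj, the DNA-binding partner of cleaved Notch, was at 7.78 and 7.89 against 8.12 and 7.15 FPKM and did not pass (0.07 ± 0.12, adjusted p = 0.680). With library totals its value was -0.03 and that of Dll4 was -0.06.

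The other genes of these pathways were read from the same fit. Of 7 tested genes for WNT ligands, R-spondins and their secretion, 5 fell (71.4%) and 0 rose. Among the 5, Wnt5b had 10 and 9 knockout counts, below the filter's minimum of 10 once scaled to depth. It passed through the wild-type libraries alone, so its call adds no support. Of 9 further WNT receptors, 6 fell (66.7%) and 0 rose. Among all genes tested, 20.8% were called lower and 23.0% higher. Porcn, the enzyme that attaches the lipid WNT proteins need for secretion, fell from 4.06 ± 0.14 to 1.36 ± 0.38 FPKM (SD, n = 2). Ror1, a receptor for WNT5A, also fell (-2.34 ± 0.34, adjusted p = 0.000675). Its deposited lengths differ between replicate numbers, so its FPKM is compared within each: from 3.11 to 0.47 in replicate 1 and from 2.57 to 0.53 in replicate 2. The Frizzled receptors Fzd1, Fzd2 and Fzd8 had log2 fold changes of -0.99 ± 0.13, -1.28 ± 0.27 and -1.12 ± 0.24, with Fzd1 at 10.9 ± 0.36 and 5.12 ± 0.59 FPKM. The ligands Wnt2b and Wnt5b and the R-spondin gene Rspo3, known from crypt stroma, had log2 fold changes of -1.33, -1.39 and -1.26. Those 3 rest on 9 to 56 counts a library and were lost under DESeq2 (adjusted p = 0.158, 0.172 and 0.103). Without wild-type replicate 2 they had adjusted p = 0.0970, 0.105 and 0.137, and without knockout replicate 1 0.103, 0.0574 and 0.123. Rspo3 was lost with no filter (adjusted p = 0.0506) and with limma (0.0527 and 0.0597) as well, and its log2 value was -0.75 without knockout replicate 1 and -2.06 without knockout replicate 2. Leaving out knockout replicate 2 also took the call from Wnt5b (adjusted p = 0.0734), and DESeq2 did not call Porcn (adjusted p = 0.0654). Stromal markers fell in the same libraries, as given above, and their part in these values was not tested.

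Of 12 inhibitors 3 fell (25.0%, near the 20.8% of all genes) and 1 rose (8.33%, against 23.0%), with Dkk3, a secreted Dickkopf family protein, at 12.3 ± 0.58 and 5.78 ± 0.04 FPKM. Kremen1, a Dickkopf receptor, and Nkd2, a relative of Nkd1, had log2 fold changes of -0.55 and -1.47, and DESeq2 called neither (adjusted p = 0.0701 and 0.0967; Nkd2 also lost its call without knockout replicate 2, at 0.0523). Sfrp1, a secreted antagonist that binds WNT ligands, rose by 0.49 ± 0.16 (adjusted p = 0.0349). Its call was lost with library totals (adjusted p = 0.0790), with DESeq2 and limma (0.129 to 0.224), and without wild-type replicate 1 (0.0589), wild-type replicate 2 (0.179) or knockout replicate 1 (0.150). Of 18 intracellular components 6 fell (33.3%) and 2 rose (11.1%). Gsk3a, a kinase of the destruction complex, rose by 0.40 ± 0.10, and Bcl9l, a co-activator of β-catenin, was at -0.64 ± 0.16. Gsk3a lost its call without wild-type replicate 1 (adjusted p = 0.0961) and with limma (0.0560 and 0.0580), and Bcl9l without wild-type replicate 2 (0.0678). The Groucho co-repressors of TCF split, with Tle3 falling from 12.0 ± 0.08 to 5.66 ± 0.42 FPKM and Tle1 rising from 7.20 ± 1.17 to 15.1 ± 0.76. Ctnnb1, the gene of β-catenin, did not pass (-0.11 ± 0.07, adjusted p = 0.260).

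Of 19 further Notch ligands, receptors and processing genes, 3 rose and 3 fell, 15.8% each way against 23.0% and 20.8% of all genes. Notch4, a receptor known from endothelium, rose from 2.64 ± 0.71 to 7.95 ± 0.26 FPKM (1.69 ± 0.17, adjusted p = 8.83e-05). Of the endothelial markers 0 of 10 rose, 3 fell and 7 were not called, against 23.0% higher and 20.8% lower of all genes. The part of endothelial cells in the Notch4 value was not tested. The protease Adam10, which cleaves Notch, and the glycosyltransferase Rfng rose by 0.47 ± 0.12 and 0.58 ± 0.13. Adam10 lost its call without wild-type replicate 2 (adjusted p = 0.0794) or knockout replicate 1 (0.0560) and with limma (0.0987 and 0.0983), and Rfng without wild-type replicate 1 (0.0512). Notch3, a receptor of mural cells, fell from 1.06 ± 0.04 to 0.40 ± 0.21 FPKM and was lost without knockout replicate 1 (-0.86, adjusted p = 0.0792), with DESeq2 (adjusted p = 0.0884) and with limma (0.0967 and 0.121). Of 10 nuclear factors and targets 3 fell (30%, against 20.8% of all genes) and 0 rose, with the co-activator Maml3 at -1.26 ± 0.22 (adjusted p = 0.00163). Maml1 and the ubiquitin ligase Dtx3 had log2 fold changes of -0.40 and -0.56. Maml1 was lost without any 1 library (adjusted p = 0.107 and 0.163 without wild-type replicates 1 and 2, 0.0570 and 0.134 without knockout replicates 1 and 2), and with DESeq2, no filter and limma with 1 added (0.0518 to 0.315). Dtx3 was lost without wild-type replicate 2 (0.252), without knockout replicate 1 (0.0888), with DESeq2 (0.216) and with no filter (0.0521). Nrarp, a feedback inhibitor induced by Notch, was at 0.00 ± 0.14 (adjusted p = 0.996).

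Of 9 further stem cell markers 3 rose and 3 fell, 33.3% each way against 23.0% and 20.8% of all genes. Lrig1, an ErbB inhibitor that marks stem cells, fell from 27.9 ± 0.13 to 14.5 ± 0.33 FPKM. Bmi1, a subunit of Polycomb complex PRC1 and a marker of slow-cycling cells, rose from 5.07 ± 0.28 to 10.3 ± 0.82 FPKM, Igfbp4, which binds insulin-like growth factors, from 40.2 ± 1.45 to 65.0 ± 6.39, and the water channel Aqp4 from 19.7 ± 0.30 to 115 ± 26. Of 10 secretory lineage factors 2 rose (20%) and 3 fell (30%), near the shares over all genes. Of the 2 that rose, Neurog3 passed the filter on low counts through the knockout libraries alone, so its call adds no support. Atoh1, the master factor of secretory cells that Hes1 represses, did not pass (-0.09 ± 0.15, adjusted p = 0.661). Spdef, which drives goblet cell maturation, rose from 17.9 ± 1.47 to 39.6 ± 3.68 FPKM, and Foxa2, a forkhead factor of secretory cells, fell from 19.0 ± 3.57 to 7.78 ± 0.89. Creb3l1, a regulator of secretory capacity, fell from 80.7 ± 4.57 to 44.3 ± 0.23 FPKM, and Klf4, a factor of goblet and surface cells, from 268 ± 22 to 193 ± 21.9, a call lost without wild-type replicate 2 (-0.29, adjusted p = 0.114).

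**Figure D4:**
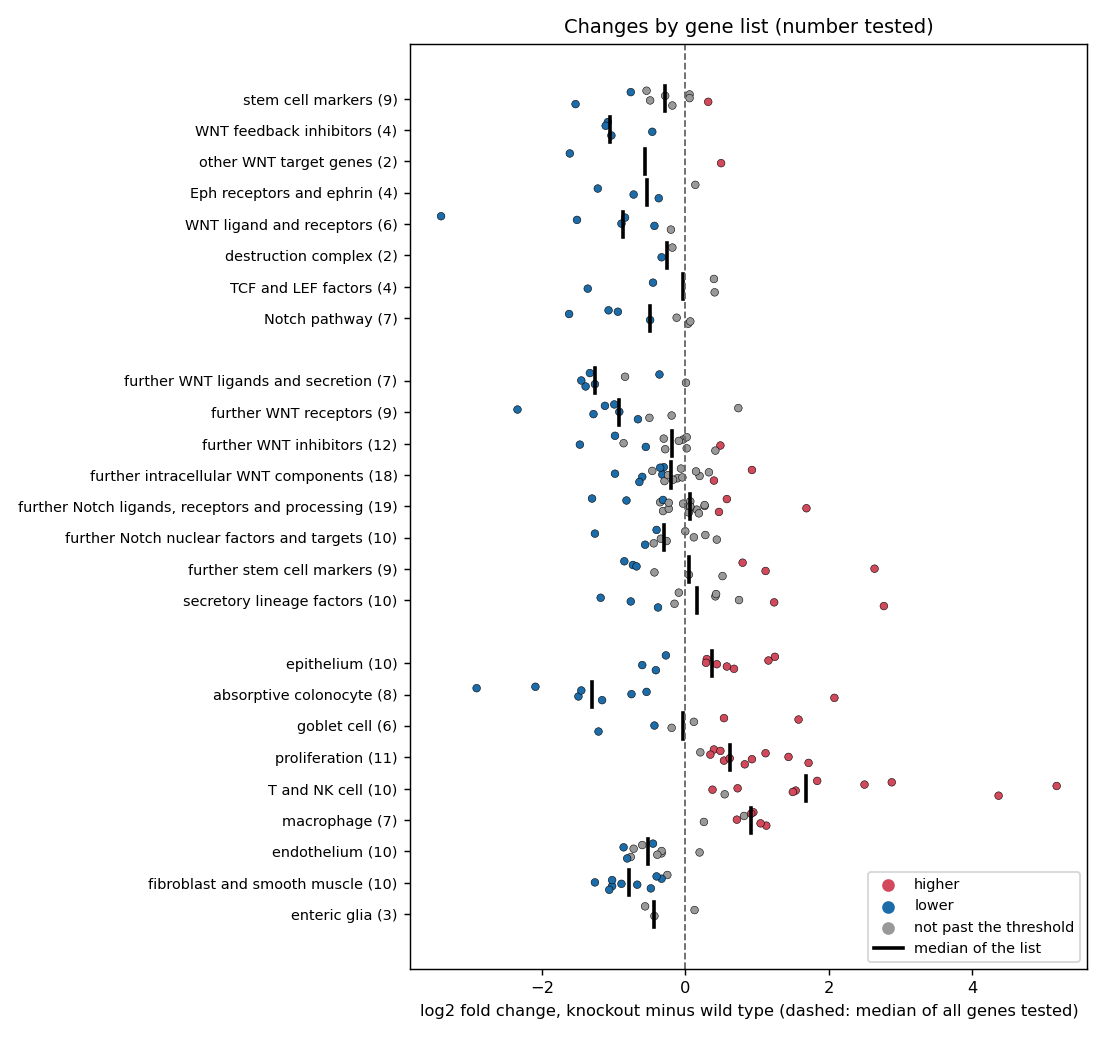
Each point is the log2 fold change of a tested gene (horizontal axis), by list, with a black bar at the list's median, a dashed line at the median of all genes and Wnt8b at its bound. The medians of the WNT feedback inhibitors (-1.05), further WNT ligands (-1.26) and further WNT receptors (-0.92) lie left of the line. Those of proliferation (0.62) and T and NK cell markers (1.69) lie right of it. The T and NK cell median includes Gzmb and Nkg7, which passed the filter on low counts through the knockout libraries alone. That of the further WNT ligands includes Wnt5b, which passed it through the wild-type libraries alone.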

How the data were processed

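RNA-seq of primary colon epithelial cells gave 4 libraries, grouped by the genotype and replicate number in the labels. Trizol RNA went into Illumina TruSeq libraries, per the labels' protocols. The submitters' processing notes name Bowtie2, BWA and the human build hg19 with no role; the organism is mouse, and what produced the estimates is not named in those notes or headers. Per the file headers, the deposited tables hold expected counts (estimated, not always whole), FPKM values and transcript lengths (unit other). Of 18872 gene identifiers 99.72% matched the mouse RefSeq table, which gave the symbols. Genes a file does not list were set to 0.

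Expected counts were rounded and tested over all genes in R 4.3.3 by the quasi-likelihood F test of edgeR 4.0.16 (genes kept by filterByExpr, TMM scaling, two-sided, Benjamini-Hochberg, threshold 0.05). The scripts were tested on simulated data. Standard errors are the log2 fold change over the square root of F. The 2 libraries of a group differed beyond sampling noise (chi-square per degree of freedom 2.18 and 2.95, against 38.3 to 44.6 between groups). Alternatives were DESeq2 1.42.0, limma 3.58.1 on log2(FPKM + 1) and log2(FPKM + 0.1), other filters and scaling, and each library left out, where the lone library of a group is assumed to vary like those of the other. Transcript lists differed between the replicate 1 and replicate 2 files for 556 of 15360 genes listed in all 4 (3.62%), so the spread within a group can include this difference. Of the 42 genes, Tcf7 was counted over different transcripts between replicate numbers and 3 (Ephb2, Tcf7 and Lef1) had deposited lengths differing by over 10%. Exons of 12 overlap a gene on the other strand in GENCODE M21, and no source states stranded counting, so reads of these pairs cannot be told apart (among genes called: Axin2, Dll1, Ephb4, Fzd5, Notch1, Prom1 and Tcf7l1). The genes and lists were chosen with earlier results of these data known. All 42 genes are described, and of each further list up to 4 called genes with the smallest p could be named. Floors cover counting error only. Epcam, Cdh1, Cldn3, Tle2, Tle4, Ctnnb1, Nrarp, Atoh1, Neurog3, Gzmb and Nkg7 were named after their values were seen.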

Additional observations from a re-analysis of the deposited data

How the results depend on the processing

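Among the 38 tested genes, the 12 alternatives left 382 values with the same sign and on the same side of the threshold. The alternatives took 41 values out of a call and 1 into one, and gave 25 the opposite sign. Counts of genes that fell ranged from 15 to 21 with a library left out, and of genes that rose from 0 to 2; library totals gave 1 higher, no filter 1, and DESeq2 and both limma fits 0. Over all genes, DESeq2 called 1721 lower (2824 in edgeR), with 2211, 2133, 2398 and 2711 lower and 2442 to 3053 higher without a library. For the further pathway genes (32 lower, 11 higher), DESeq2 called 15 lower, limma on log2(FPKM + 0.1) 7 higher, and leaving out a library 19 to 28 lower and 8 to 12 higher, the 19 without wild-type replicate 2. The cause was not tested. Neurog3, among the 11 further pathway genes that rose, passed the filter on low counts through the knockout libraries alone. Wnt5b, among the 32 that fell, passed it through the wild-type libraries alone.

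Among these genes sign changes fell on genes not called. With library totals, limma with 1 and limma with 0.1 added, the values were -0.04, -0.04 and -0.04 for Smoc2, -0.05, -0.04 and -0.05 for Cdca7, -0.06, -0.04 and -0.04 for Dll4, and -0.03, -0.04 and -0.04 for Rbpj. With a library left out, values ranged from -0.08 to 0.20 for Smoc2, -0.07 to 0.17 for Cdca7, -1.16 to 0.26 for Mex3a, -0.46 to 0.07 for Hopx, -0.13 to 0.37 for Ephb2, -0.05 to 0.74 for Tcf7, -0.06 to 1.08 for Lef1, -0.16 to 0.27 for Dll4, -0.36 to 0.16 for Jag1 and -0.04 to 0.16 for Rbpj.

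The replicate numbers are shared between genotypes, but nothing says what they pair. Deviations from the group means correlated at r = 0.571 between same-numbered libraries (0.264 over genes with the same transcripts), a hint from the data only. With the replicate block edgeR called 22 of the genes lower and 2 higher, as without it, and 3855 genes higher and 3548 lower in all. Depth limits Olfm4, Msi1, Notum and Sp5, and leaves Lgr5, Ascl2 and Mex3a uncertain.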

Other observations

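Values of the 38 tested genes were also compared between replicate numbers within each genotype. Per effective library size, 19 of the 38 (50%) were lower in replicate 1 than in replicate 2 in both genotypes and 6 (15.8%) were higher in both, against 29.5% and 29.1% of all genes tested. Sox9, for example, was at 20.5 and 23.7 FPKM in wild type and 5.13 and 8.31 in knockout, and Tcf7l1 at 24.5 and 29.4 against 8.55 and 11.0. Transcript lists also differ between the files of replicates 1 and 2 for 3.62% of genes. The share of genes lower in replicate 1 was looked at after the values were seen and was not tested.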
